A study of Mus musculus with 4 samples.

Results

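The alpha chain of the T cell receptor is assembled from separate gene segments, and the Trav genes are its variable segments. All mouse genes whose symbol begins with Trav were taken from the deposited transcript identifiers and joined by gene ID to the gene tables, which gave 128 of 55536 mouse genes. Total RNA from splenic CD3 T cells was sequenced from male B6CASTF1/J mice aged 66 days, an F1 cross of C57BL/6 females with CAST Eij males. There were 4 libraries in 1 group, each made from 300 ng of RNA with a stranded kit and with spike-in RNAs, and no treatment or contrast. The labels number them as biological replicates but give all 4 the same donor identifier, so each SD and p-value measures the spread between these samples, which may be technical.

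In a developing thymocyte the recombinase cuts the DNA at the end of a Trav segment and joins it to a joining segment, Traj, which is then spliced to the constant gene, Trac. Trav segments nearest the Traj cluster are known to be joined first, and repeated rounds on the same chromosome reach segments farther away. In mice a large part of the Trav array has been copied, and the copies carry the letter d or n after the subfamily number. A mature alpha-beta T cell transcribes a rearranged Trav segment as the start of its alpha chain message, so RNA from many cells reads out which segments a population uses.

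All 128 Trav genes lie on the plus strand of mouse chromosome 14 (assembly mm10, GENCODE annotation M21), over 1549.75 kb from Trav1 at chr14:52427928-52428876 to Trav23 at chr14:53977153-53977678. Trac follows downstream at chr14:54220521-54224206. The annotation lists 108 of them as variable segment genes, here called functional, and 20 as pseudogenes. They form 23 subfamilies, of which 12 have 1 to 3 members. With the letters d and n removed they form 57 duplicate groups, and 40 of these groups have more than 1 member and hold 111 of the 128 genes. There are 39 d copies, 34 n copies and 55 genes without a letter.

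The copies are close enough that short reads often cannot name their source. Over 102 pairs of genes within duplicate groups the median identity of the annotated transcripts was 97.6%, and 21 pairs had no difference over the length of the shorter transcript. Of the 128 genes, 39 contained no 101-base window that was absent from all other annotated genes, 29 consisted of such windows throughout, and 69 were unique in at least 50% of their windows. A gene outside the Trav group, C920008G01Rik, accounted for all 280 windows that were shared beyond the group. The 3′ ends of both pairs on which the results below turn are shown here from the GENCODE M21 transcripts, all on the plus strand of mm10. Lower case marks the 120 bases that both genes of a pair share at this end, and a capital marks the extra 3′ base by which the annotated transcripts differ.
Trav7-2: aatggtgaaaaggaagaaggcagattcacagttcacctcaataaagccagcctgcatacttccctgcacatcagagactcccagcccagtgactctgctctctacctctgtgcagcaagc
Trav7d-2: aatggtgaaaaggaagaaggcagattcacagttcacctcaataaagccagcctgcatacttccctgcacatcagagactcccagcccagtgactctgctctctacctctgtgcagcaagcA
Trav11: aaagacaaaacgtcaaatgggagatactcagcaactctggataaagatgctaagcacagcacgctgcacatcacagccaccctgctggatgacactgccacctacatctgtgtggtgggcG
Trav11d: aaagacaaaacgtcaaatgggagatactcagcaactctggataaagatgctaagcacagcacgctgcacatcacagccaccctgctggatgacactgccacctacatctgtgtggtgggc
Trav7-2 (chr14:53390635-53391142) and Trav7d-2 (chr14:52683964-52684472) are otherwise the same over 336 bases. Trav11 (chr14:53519303-53519859) and Trav11d (chr14:52824357-52824912) are the same over 342 bases. Each printed end holds the letters TACNTCTGT, where N is any base and TGT is the codon of the conserved cysteine at which the hypervariable junction begins. On the plus strand this motif lay within the last 60 bases of 59 of 108 functional segments (54.6%) and 9 of 20 pseudogenes (45.0%). It lay in the same stretch of 13 of 35 beta chain variable (Trbv) genes (37.1%) and of 206 of 55450 annotated genes (0.372%). On the opposite strand it was found in no Trav gene and in 107 annotated genes (0.193%), and overlaps with other motifs were not searched.

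The files hold 2 quantifications of the same libraries, a gene table and a separate transcript table, here called the first and the second. Counts and levels below are from the first unless the second is named. A count is the authors' estimated number of reads per gene, and TPM is the deposited level per length, scaled to a fixed total in each library. The libraries held 14540725 to 17280908 counts over mouse genes. The Trav genes together took 2173, 2513, 2193 and 1963 counts in libraries 1 to 4, or 0.0138% ± 0.000521 of the counts (SD, n = 4). A floor of 3 counts then corresponds to 0.119% to 0.153% of a library's Trav counts, and it covers counting error only. In the second quantification the Trav genes together took fewer counts, 1226, 1379, 1319 and 1141 in libraries 1 to 4. All 16 markers of T cells were above 1 TPM on average, with a summed level of 4037 to 4185 TPM. The 10 markers of B cells summed to 14.3 to 19.9 TPM in libraries 1 to 3 and 153 TPM in library 4. The 5 markers of red blood cells summed to 14.5 to 60.7 TPM in libraries 1 to 3 and 600.26 TPM in library 4. The part of these other cells in any Trav value was not tested.

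Summed over all 128 genes, Trav reached 471, 503, 470.49 and 477 TPM in libraries 1 to 4, against 494, 532, 483 and 495 TPM for Trac. The constant gene Trac encodes the shared part of every alpha chain, and its level was slightly above the Trav sum in each library. The ratio of Trav to Trac was 0.959 ± 0.0127 (SD, n = 4), or a log2 ratio of -0.06 ± 0.02. It was below 0 in 4 of 4 libraries (exact two-sided sign-flip permutation test, p = 0.13, the smallest that 4 libraries allow). In the second quantification the Trav sum was 476 ± 16.6 TPM against 487 ± 24.6 TPM for Trac, and the log2 ratio was -0.032 ± 0.11, with Trav above Trac in library 3. The direction was therefore not the same in every library there. On expected counts, which grow with the length of a gene, the log2 ratio was -1.29. In bulk RNA, fewer cells of a type and less RNA per cell cannot be told apart, for any Trav gene as for Trac.

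Use of the subfamilies was broad and uneven. The 8 subfamilies with the most counts, Trav7, Trav14, Trav6, Trav9, Trav12, Trav4, Trav13 and Trav3, took 78.2% of Trav counts and hold 87 genes, 68.0% of the members. Trav7, with 13 genes, had 330, 449, 315 and 293 counts in libraries 1 to 4, which was 15.6% ± 1.56 of Trav counts (SD, n = 4 here and in the next shares). Its count in library 2 lay above the other libraries, and so did its share, at 17.9% against 14.4% to 15.2%. Trav14, with 9 genes, had 295, 330, 269 and 268 counts and 13.2% ± 0.636. Trav6, with 15 genes and therefore the largest subfamily, had 325, 306, 267 and 232 counts and 12.8% ± 1.46. Trav9, with 11 genes, had 231, 286, 284 and 257 counts and 12.0% ± 1.21. The shares of Trav14, Trav6 and Trav9 therefore lay within about their spread of each other. Trav12 followed with 7.84% ± 0.631, Trav4 with 6.20% ± 1.02, Trav13 with 5.89% ± 0.592 and Trav3 with 4.71% ± 0.534, and the last 3 of these again overlapped in part.

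**Figure D1:**
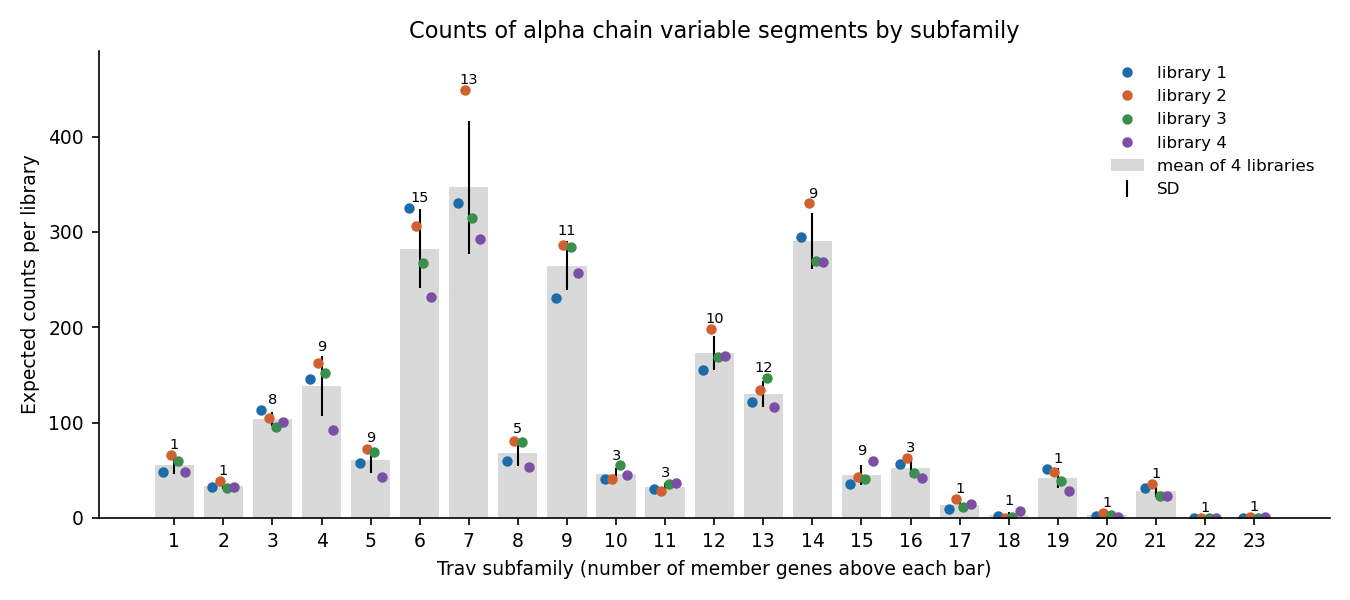
Expected counts of each of the 23 Trav subfamilies (x axis) in the 4 libraries (points), with the mean (bar) and SD (line), and the number of member genes above each bar. Trav7, Trav14, Trav6 and Trav9 stand highest, at 231 to 449 counts per library.

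Counts followed the number of functional genes in a subfamily, with a Spearman coefficient of 0.911 across 23 subfamilies, given as a description since these share the same libraries. Per functional gene, and so per length and per copy, levels were closer together. Trav1, whose only gene encodes the variable part of the invariant receptor of MAIT cells, stood at 13.2 TPM per gene. Trav19 and Trav21, each a single gene, stood at 7.28 and 6.62 TPM, Trav14 at 6.63 TPM and Trav7 at 5.99 TPM per functional gene. Trav15, with 6 functional genes and 3 pseudogenes, stood at 1.72 TPM per functional gene. The least used subfamilies were all single genes. The pseudogene Trav22 had 0 counts in every library, Trav23 had 0, 1, 0 and 1 counts, and Trav18 had 2, 0, 1 and 7 counts. The pseudogene Trav20 came next, with 2, 5, 3 and 1 counts.

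In every library, at least 1 count fell on 98 single segments, of which 94 were functional. Another 13 had 0 counts throughout, and 99 had a mean level of at least 1 TPM. Use was spread widely, since 26 segments were needed to reach 50% of Trav counts and the 10 with the highest level held 26.1% of the summed Trav TPM. Trav7-2 was highest, at 19.6, 22.9, 22.4 and 22.3 TPM in libraries 1 to 4. Trav6-5 had 11.8, 17.1, 14.2 and 14.4 TPM. Trav9-1 had 9.01, 12.6, 17.1 and 16.7 TPM. Only Trav7-2 stood apart from the next segments by more than the spread of the libraries, and it is one of the printed copies whose reads cannot be separated. Trav1 averaged 13.2 ± 1.48 TPM, Trav12-2 13.2 ± 1.53 TPM, Trav7d-3 12.8 ± 2.24 TPM and Trav14-2 11.1 ± 1.94 TPM (SD, n = 4). These 4 and Trav6-5 (14.4 ± 2.20 TPM) and Trav9-1 (13.8 ± 3.80 TPM) could not be ordered beyond their spread. Trav6d-6 and Trav6-6, whose sequences are identical, were each given 8.40 ± 0.804 TPM, and Trav7d-4 had 8.27 ± 1.41 TPM.

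Of these 10, Trav1 consists only of unique windows, and Trav12-2 and Trav14-2 of 98.8% and 95.8% unique windows. Trav1 had 48, 66, 60 and 48 counts, at 13.2 ± 1.48 TPM in the first quantification and 10.7 ± 1.63 TPM in the second. Trav12-2 had 13.2 ± 1.53 TPM in the first and 13.1 ± 1.07 TPM in the second, nearly equal values. Trav14-2 and Trav9-1 differed more, with 11.1 ± 1.94 against 5.19 ± 3.49 TPM and 13.8 ± 3.80 against 4.60 ± 1.88 TPM, although 73.8% of the windows of Trav9-1 are unique. A level of such a segment therefore depended on the quantification even where its sequence is mostly its own.

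The sharpest example was Trav7-2 with its copy Trav7d-2. The first quantification gave Trav7-2 76, 95.6, 88 and 76.9 counts in libraries 1 to 4 and gave Trav7d-2 0, 0.41, 0 and 1.07. The second gave Trav7-2 0 in every library and gave Trav7d-2 60, 76, 68 and 44. Each quantification thus placed nearly all reads on a single gene of the pair, but not on the same one, and the genes differ by a single annotated base at the 3′ end. The posterior mean counts deposited beside the first quantification divided the reads more evenly, with 48.1 ± 4.96 for Trav7-2 and 36.4 ± 4.57 for Trav7d-2 (SD over n = 4). The authors' posterior standard deviation for Trav7-2 averaged 23.1 counts. Summed, the pair had 76, 96, 88 and 78 counts, or 21.9 ± 1.54 TPM in the first quantification and 28.9 ± 4.53 TPM in the second. In the first quantification no duplicate group had a higher mean, but the 3 Trav14-1 copies, at 21.3 TPM, lay within the pair's SD. These data do not separate the members of the pair.

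Trav11 and Trav11d encode the variable part of the invariant receptor of NKT cells in the mouse, and their counts changed sides between libraries. Trav11 was given 27.9, 0, 27.8 and 0 counts in libraries 1 to 4, and Trav11d 0.12, 28, 6.23 and 37. Where a library was high for either gene, it was low for the other. Their sum was 28, 28, 34 and 37 counts, and the posterior means were 14.9 ± 2.11 for Trav11 and 16.9 ± 2.42 for Trav11d. The alternation between libraries thus lay in how the sum was divided between the copies. The second quantification gave the pair fewer counts, 4.57, 10, 12 and 13, and placed those of library 4 on Trav11 and the others almost wholly on Trav11d. It gave fewer counts to the Trav genes as a whole too. The share of the Trav11 subfamily was 0.876% of Trav counts there, against 1.49% in the first.

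**Figure D2:**
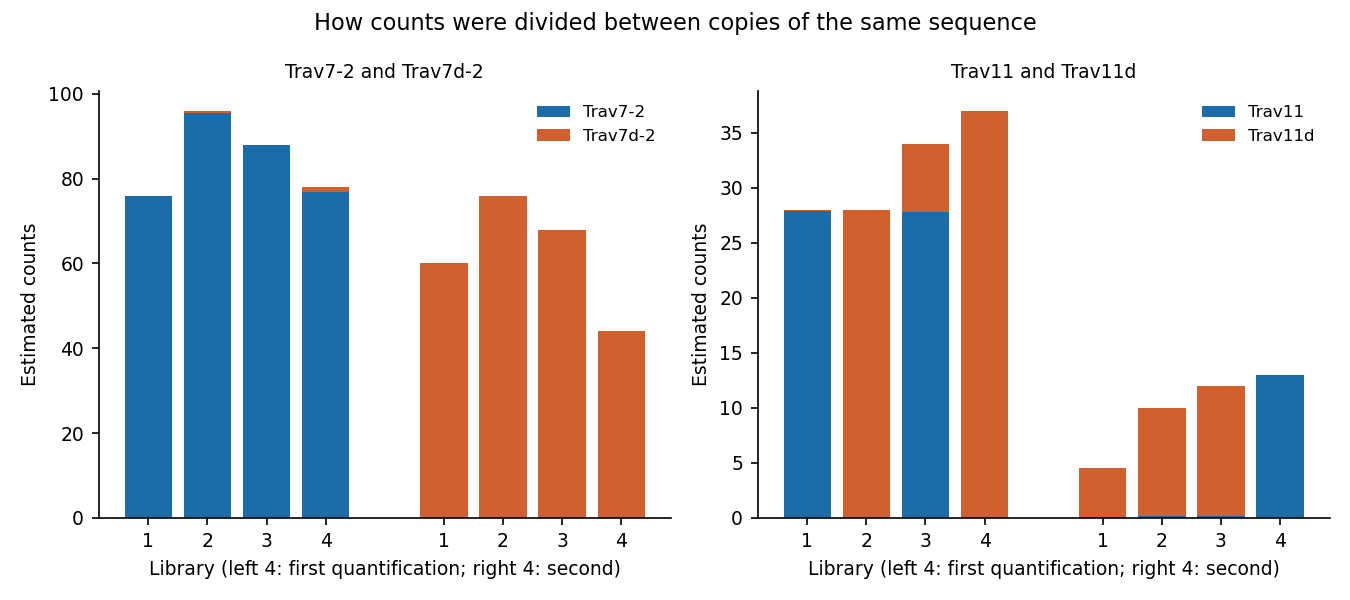
Estimated counts per library of Trav7-2 with Trav7d-2 (left) and Trav11 with Trav11d (right), stacked by gene, in the first quantification (left 4 bars of a panel) and the second (right 4 bars). The first places Trav7 counts on Trav7-2 and the second on Trav7d-2, while Trav11 counts change sides between libraries.

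Other groups were divided differently too. Trav14n-3 had 7.97 ± 1.56 TPM in the first quantification and 2.53 ± 0.769 TPM in the second, and its copy Trav14-3 had 5.63 ± 0.535 and 7.95 ± 2.38 TPM. Trav6n-6 had 2.39 ± 0.813 TPM in the first and 7.05 ± 2.72 TPM in the second, while its copies Trav6d-6 and Trav6-6 each had 5.28 ± 1.06 TPM in the second. The pairs with identical sequence show the division most plainly. The annotated transcripts contained 17 pairs of genes with identical sequence, 16 of them a d copy and an n copy, and in all 17 both genes were given equal counts in every library (within 0.01 counts). For 2 of these pairs both values were 0. For example, Trav14d-1 and Trav14n-1 were each given 42.2, 32.3, 34.3 and 40.8 counts. Such equality is a division by the quantifier and says nothing of which copy was transcribed. The 39 genes without a unique window held 29.5% ± 2.39 of Trav counts, the 20 with some unique windows but under 50% held 12.4% ± 1.15, and the 69 that were unique in at least 50% held 58.1% ± 1.89 (SD, n = 4). Among genes with a mean of at least 10 counts, the authors' posterior standard deviation had a median of 54.8% of the count for genes without a unique window. It was 42.1% for those unique in part and 3.53% for those unique in at least 50% of windows.

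Correlation coefficients were higher where copies were summed. Between quantifications, the Pearson coefficient of the mean share of Trav counts was 0.632 over 128 segments, 0.894 over 57 duplicate groups and 0.983 over 23 subfamilies, as a description of points that share libraries and depth. Between pairs of libraries in the first quantification, the coefficient was 0.860 to 0.900 for segments, 0.922 to 0.945 for duplicate groups and 0.974 to 0.986 for subfamilies. Relative to counting noise the medians did not follow this order. The index of dispersion between libraries, the squared deviations from the counts each library's Trav total gives, over those counts and per degree of freedom, had a median of 0.993 for segments, 1.23 for duplicate groups and 1.36 for subfamilies with a mean of at least 5 counts. Identical copies with equal parts of a shared count lower the segment median, so these medians are not a like comparison. The largest index was 33.7 for segments (Trav6n-5), 6.44 for duplicate groups and 4.40 for subfamilies. It was above 3 for 16 of 98 segments, 8 of 47 duplicate groups and 4 of 19 subfamilies.

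**Figure D3:**
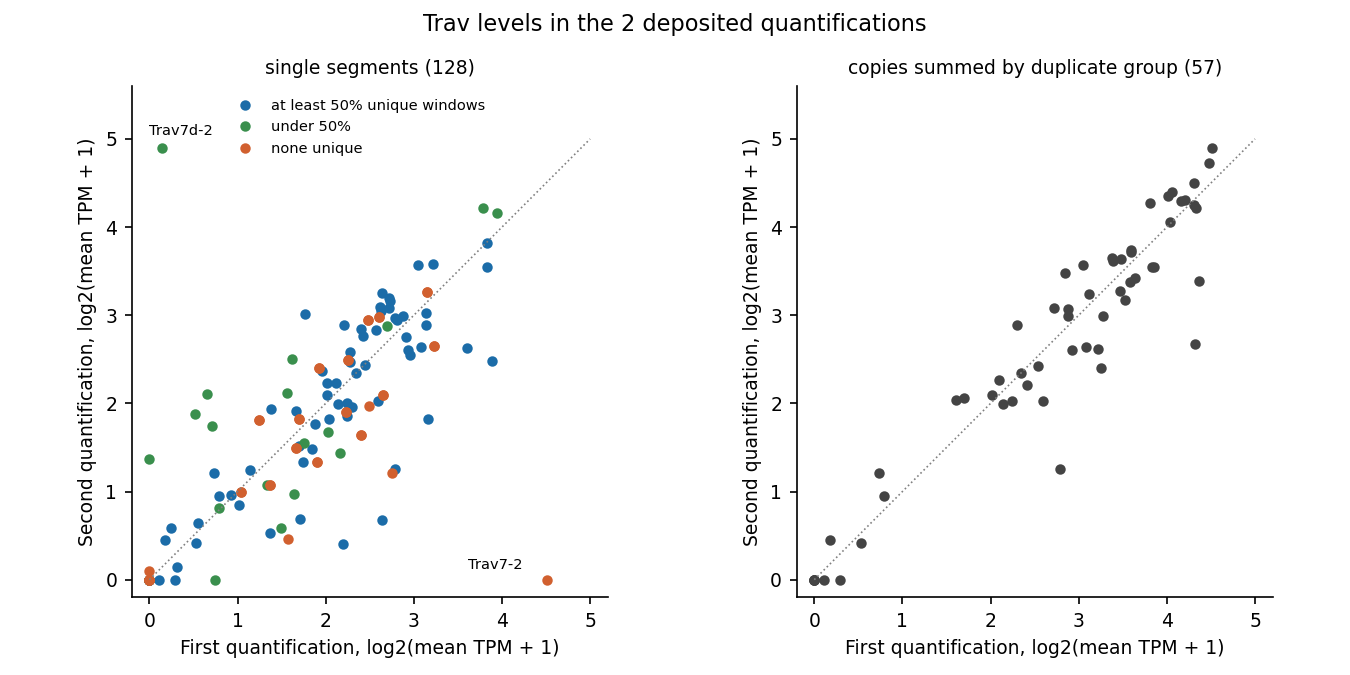
Mean level of Trav genes in the second quantification (y axis) against the first (x axis), as log2(mean TPM + 1), for 128 single segments colored by the share of unique 101-base windows (left) and for 57 duplicate groups with copies summed (right). The dotted line marks equal levels. Trav7-2 and Trav7d-2 lie at opposite corners on the left and the points move toward the line on the right.

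Variation of a segment between the 4 libraries was tested with edgeR's goodness-of-fit test over all genes with enough counts in every library. Of the 128 Trav genes 62 could be tested, all functional, and 0 were called at a Benjamini-Hochberg adjusted p below 0.05, against 1.4% of all 13118 genes tested. At an unadjusted p below 0.05 there were 2 (3.23%), Trav7-4 and Trav14d-3-dv8, against 4.6% of all genes. The median statistic was 1.33 for Trav genes and 1.47 for all genes. The 62 include pairs of identical sequence, such as Trav14d-1 and Trav14n-1, which have the same counts and the same statistic of 1.57. Each such pair enters these values 2 times with equal parts of a shared count, which lowers its spread relative to counting noise. The comparison with all genes is therefore not a like one. Trav7-4 had the largest statistic, with 18.6, 56.0, 22.7 and 23.9 counts in libraries 1 to 4 (edgeR, adjusted p = 0.925), and its library 2 lay above the rest. Trav14d-3-dv8 had 30.6, 52.4, 23.2 and 16.3 counts, again highest in library 2. Trav7-5 had 33, 48.7, 20 and 21 counts, Trav9n-4 had 41.4, 28.4, 46.9 and 56.3, and Trav9-1 had 44.1, 66.4, 84.7 and 72.7. None of these differences passed the test at this depth. The 5 myeloid markers were also highest in library 2, at 48.2 TPM against 27.9 to 31.7 TPM in the others, and their part in these values was not tested.

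The filter leaves out genes with too few counts in a library, including some above 0 throughout. Trav8-1, with 13.5, 8.51, 43.2 and 12.85 counts, and Trav9d-4, with 13.6, 31.8, 13.7 and 2.41, were left out. Neither was called with a mean of at least 10 counts (edgeR goodness-of-fit, adjusted p = 0.453 and 0.161). With lower filters the test did call other members. With every gene above 0 counts, 3 of 115 Trav genes were called, Trav11, Trav11d and Trav6n-5, and with a mean of at least 10 counts 2 of 79, Trav11 and Trav11d, against 1.18% and 1.87% of all genes tested (edgeR goodness-of-fit, Benjamini-Hochberg adjusted p below 0.05). Trav6n-5 had 32.9 counts in library 1 and 0 in libraries 2 to 4. Its copy Trav6-5 had 53.1 counts in library 1 and 58.1 to 83.3 in the others, and the 3 copies Trav6d-5, Trav6n-5 and Trav6-5 summed to 86, 88, 73 and 60. The posterior mean of Trav6n-5 was 23.4 counts in library 1 and 6.47 to 8.48 in the others. With copies pooled, 0 of 44 duplicate groups and 0 of 18 subfamilies were called, against 1.4% of all genes, and 0 of either were below an unadjusted p of 0.05. With DESeq2 size factors, in the second quantification and without library 1, 2, 3 or 4 in turn, 0 Trav genes were called, against 1.37%, 1.23%, 0.882%, 0.97%, 1.1% and 0.873% of all genes. In the second quantification only 28 Trav genes could be tested.

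Position along the array was compared by dividing the 128 genes in order into 42 proximal genes (nearest Trac), 43 middle and 43 distal ones. The proximal genes summed to 181, 199, 200.36 and 193 TPM in libraries 1 to 4, against 162, 175, 158 and 162 TPM for the distal genes. The proximal sum was above the distal sum in every library, and the 2 sets of values did not overlap. The log2 ratio of proximal to distal was 0.24 ± 0.08 (SD, n = 4), higher in 4 of 4 libraries (exact two-sided sign-flip permutation test, p = 0.13, the smallest that 4 libraries allow, and 0.13 after adjustment over 4 such tests). The middle genes were lowest, at 123 ± 7.56 TPM. The proximal to distal difference depended on the quantification, since the ratio was -0.0042 ± 0.085 in the second. Without Trav7-2 and Trav7d-2, which lie in the middle and the distal set, it was 0.24 in both quantifications. Among genes unique in at least 50% of windows the mean per gene was compared instead of the sum. That log2 ratio had the opposite sign, at -0.17 ± 0.10, with 4.38 TPM for 38 proximal genes and 4.93 TPM for 15 distal ones. The distal genes here include Trav1, at 13.2 TPM. Without it the distal mean falls just below the proximal mean, so the opposite sign rests on this gene and the means are then nearly equal. Of genes without a unique window, 1 was proximal, 19 were in the middle and 19 were distal. A higher level of proximal segments was thus not a property that held across these choices.

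By blocks of the array, the 8 unlettered genes at the distal end, from Trav1 on, summed to 47.7 ± 3.45 TPM, or 6.82 TPM per functional gene. The d copies summed to 126 ± 5.61 TPM over 39 genes and the n copies to 84.7 ± 7.68 TPM over 34 genes, or 3.71 and 2.96 TPM per functional gene. The 40 unlettered genes that follow, up to subfamily 16, summed to 203 ± 11.8 TPM, or 5.88 TPM per functional gene. The last 7 genes, subfamilies 17 to 23, summed to 18.8 ± 2.49 TPM, or 3.64 TPM per functional gene. The n copies were the lowest block per functional gene. Of the 73 d and n copies, 37 have no unique window, so the division of reads among copies is uncertain there. Across 108 functional segments the Spearman coefficient of level with distance to Trac was -0.072, a description of segments that share libraries and sequence.

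**Figure D4:**
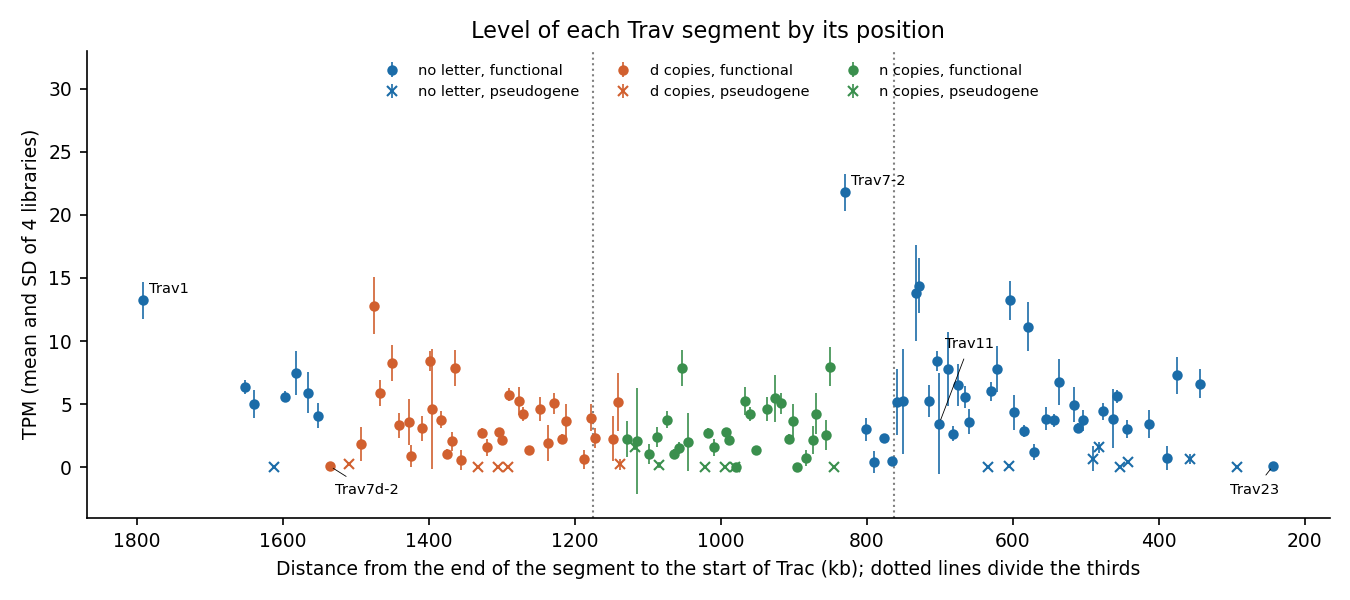
Mean TPM with SD over 4 libraries of each Trav gene (y axis) against its distance to Trac in kb (x axis, distal on the left), by letter and annotated class. Dotted lines divide the 43 distal, 43 middle and 42 proximal genes. Trav7-2 is highest at 21.8 TPM, and no steady trend along the array is seen.

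Functional segments had higher levels than pseudogenes in every library. The 108 functional segments averaged 4.39 TPM, with a median of 3.72 TPM, and the 20 pseudogenes averaged 0.285 TPM, with a median of 0. The log2 ratio of their means was 4.20, 4.30, 3.78 and 3.61 in libraries 1 to 4, or 3.97 ± 0.33 (SD, n = 4), higher in 4 of 4 libraries (exact two-sided sign-flip permutation test, p = 0.13, the smallest that 4 libraries allow). Pseudogenes took 18.1, 19.1, 21.6 and 24.4 counts, or 0.955% ± 0.213 of Trav counts. Of the 20, 11 were at 0 in every library and 4 had at least 1 count in each. Those 4 were Trav8-2 with 6, 5.50, 5 and 7.81 counts, Trav9n-1 with 7.07, 5.37, 5.97 and 6.12, Trav20 with 2, 5, 3 and 1, and Trav12-4 with 1, 2, 1 and 1. All 4 are unique in 77.0% or more of their windows, but the second quantification gave Trav9n-1 0, 2, 2 and 0 counts and Trav12-4 0, 0, 0 and 2.

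Some functional segments were as low as pseudogenes. Trav7n-6 and Trav12n-3 had 0 counts in every library. Neither can be called unused, because Trav7n-6 has no unique window and Trav12n-3 has them in only 2.37% of its length, and their posterior means were 6.39 ± 2.57 and 10.6 ± 1.95 counts. By contrast Trav23, the segment nearest Trac, and Trav18 consist only of unique windows. Trav23 had 0, 1, 0 and 1 counts and Trav18 had 2, 0, 1 and 7, so both were at or near the floor although nothing annotated competes for their reads.

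The delta chain locus lies inside the alpha locus, and 10 Trav genes carry a dv number because the delta chain uses them too. These segments summed to 30.5, 38.7, 36.4 and 32.8 TPM in libraries 1 to 4 and took 7.0% ± 0.673 of Trav counts (SD, n = 4). Trav4-4-dv10 had 5.83, 8.15, 8.44 and 4.65 TPM, and Trav21-dv12 had 7.27, 7.83, 5.31 and 6.05 TPM. Trav14d-3-dv8 averaged 5.15 ± 2.29 TPM, Trav13-4-dv7 3.85 ± 2.33 TPM, Trav15-1-dv6-1 3.63 ± 0.995 TPM and Trav6-7-dv9 3.12 ± 0.42 TPM. Trav16d-dv11 averaged 2.36 ± 0.795 TPM, Trav15d-2-dv6d-2 1.37 ± 0.207 TPM, Trav15-2-dv6-2 1.21 ± 0.622 TPM and Trav15d-1-dv6d-1 0.568 ± 0.801 TPM. In the second quantification Trav15d-1-dv6d-1 was at 3.32 ± 3.41 TPM and Trav15-1-dv6-1 at 6.41 ± 2.81 TPM, higher than in the first. Trav15d-2-dv6d-2 has the same sequence as Trav15n-2, and Trav15d-1-dv6d-1 does not differ from Trav15n-1 over 352 bases. Neither n copy carries a dv number, so levels of these d copies depend on the division of reads. The posterior means of Trav15d-1-dv6d-1 and Trav15n-1 were 5.29 ± 3.69 and 5.21 ± 4.34 counts. Reads from alpha and from delta messages cannot be told apart over these segments. The delta constant gene Trdc was at 5.42, 5.33, 5.59 and 7.03 TPM, and the 6 Trdv genes, used by the delta chain alone, summed to 8.04 to 12.6 TPM.

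Trav use was compared with that of Trbv, the variable segments of the beta chain, which pairs with the alpha chain. The effective number of segments, the exponential of the Shannon entropy of count shares, was 79.8 ± 1.14 of 128 for Trav and 18.3 ± 0.263 of 35 for Trbv (SD, n = 4). As a share of the genes in each list these were 0.623 ± 0.0089 and 0.523 ± 0.0075. The difference of these shares was 0.10 ± 0.012, higher for Trav in 4 of 4 libraries (exact two-sided sign-flip permutation test, p = 0.13, the smallest that 4 libraries allow). In the second quantification the difference was smaller, at 0.057 ± 0.011. The 5 most counted genes held 16.1% ± 1.18 of Trav counts and 43.8% ± 1.36 of Trbv counts. These come from lists of 128 and 35 genes, so they are not a like measure of evenness. The equal counts given to identical Trav copies enter the Trav values. Genes at 0 in every library enter the length of each list, 10 of 35 for Trbv and 13 of 128 for Trav. Leaving those genes out shortens the lists but does not change the effective numbers. As a share of the genes with counts alone, the effective number was higher for Trbv than for Trav. The direction of the difference thus depended on counting genes at 0.

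Other parts of the alpha chain pathway were read from the same libraries. The 60 Traj genes, with annotated lengths of 29 to 72 bases, were listed at 0 in every library by both quantifications, so joining segments cannot be described. Rag1 and Rag2, which encode the recombinase, had 0 counts in every library. Ptcra, the surrogate alpha chain of thymocytes, had 1 count in all 4 libraries together, and Dntt, the polymerase that adds bases at the junction, was at 0.905 ± 0.291 TPM. The signalling chains of the receptor were at 184 ± 14.8 TPM for Cd3d, 302 ± 3.86 TPM for Cd3e, 164 ± 3.5 TPM for Cd3g and 135 ± 1.98 TPM for Cd247. Of the transcription factors that act at the alpha enhancer, Ets1 was at 282 ± 7.07 TPM, Lef1 at 236 ± 13.9 TPM, Runx1 at 59.2 ± 7.99 TPM and Gata3 at 22.7 ± 2.38 TPM. Zbtb16, the factor of invariant NKT and MAIT cells, was at 3.94 ± 0.544 TPM. Of the 21 genes on this list 18 could be tested and 0 were called as varying between libraries, against 1.4% of all genes (edgeR goodness-of-fit, Benjamini-Hochberg adjusted p below 0.05). At an unadjusted p below 0.05 there were also 0, against 4.6% of all genes.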

How the data were processed

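Per the labels, total RNA of splenic T cells was sequenced in 4 libraries. The deposited notes name mm10 and GENCODE M21. The names of the aligner and quantifiers were not given in the sources used here. In the first quantification expected counts, deposited per gene, are estimates with an effective length 100 bases below the annotated length. The deposited TPM and FPKM values scale these per length and depth. The authors' deposited posterior mean counts and posterior standard deviations, a score of uncertainty, stand beside them. The second quantification, deposited as estimated counts and TPM per transcript from 1 read file per library, was summed per gene. Reads were assigned to a C57BL/6 reference, although CAST Eij contributes the paternal genome, and its effect was not tested.

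Members were matched by symbol, and the members, lists and tests were chosen with earlier results of these data known. Named segments are the 10 highest by TPM, the 5 with the largest variation statistic, Trav1, Trav11 and Trav11d, all dv segments, the 3 duplicate groups whose copies were divided most differently, and the first and last by position. Named subfamilies are the 8 with most and the 3 with fewest counts. Other segments named in the text were chosen after their values were seen. Windows of 101 bases were compared over all GENCODE M21 transcripts. To test variation between libraries, expected counts were rounded and fitted with edgeR 4.0.16 under R 4.3.3 (intercept only, trended dispersion, TMM, filterByExpr, goodness-of-fit test, Benjamini-Hochberg adjustment at 0.05). The procedure was tested on simulated data. The common biological coefficient of variation was 0.0938. DESeq2 1.42.0 size factors, other filters, pooled copies, the second quantification and leaving out each library were alternatives. Those on uniqueness, pooling by duplicate group, posterior means and the Trav7-2 pair were added after seeing the data. Ratios within a library were tested by exact two-sided sign-flip permutation over the 4 libraries. Reads carry no molecular identifiers, so copies made by PCR are counted too, and floors refer to counting error alone.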

Additional observations from a re-analysis of the deposited data

Results flagged for a closer look

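In groups of 4 libraries, the highest or lowest value was compared with the others by Dixon's gap test at its 95% critical value. Of 57 Trav values tested in this way 2 were flagged, and chance alone flags about 1 group in 20. Trav6 held 14.95% of Trav counts in library 1, against 11.8% to 12.2% in libraries 2 to 4. In that library the 3 copies Trav6d-7, Trav6n-7 and Trav6-7-dv9 summed to 62 counts, against 37 to 42 in the others, and Trav6n-5 had 32.9 counts, against 0. The 3 copies of the Trav6n-5 group together had 86 counts there, against 60 to 88 in the others. In the second quantification the share of Trav6 in library 1 was 12.6%, within the 9.81% to 12.7% of the others. Trav15 held 3.06% of Trav counts in library 4, against 1.66% to 1.87% in libraries 1 to 3. Its 3 copies Trav15d-1-dv6d-1, Trav15n-1 and Trav15-1-dv6-1 summed to 39 counts in library 4, against 17, 22 and 27 in libraries 1 to 3. In the second quantification the share of Trav15 was also highest in library 4, at 5.43%, against 2.32% to 3.26%. The gamma-delta markers summed to 28.4 TPM in library 4 and 18.3 to 23.3 TPM in the others, and the B cell and red blood cell markers were highest there too. Their part in the Trav15 share was not tested.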

How the results depend on the processing

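The log2 ratio of summed proximal to distal levels was -0.0042 ± 0.085 in the second quantification. Compared as a mean per member and not as a sum, it was -0.17 among members unique in at least 50% of windows. That sign rests on Trav1, without which the distal mean lies just below the proximal mean. Under the other settings with all 4 libraries it was 0.21 to 0.37. The count of segments varying between libraries was 0, but 3 with no filter and 2 with a mean of at least 10 counts. It stayed at 0 with DESeq2 size factors, pooled copies, the second quantification (28 Trav genes tested) and each library left out. Leaving out each library in turn gave -0.068 to -0.053 for Trav to Trac, 0.20 to 0.26 for proximal to distal, 3.86 to 4.09 for functional to pseudogene segments and 0.095 to 0.104 for evenness. All 3 of these log2 ratios and the evenness difference kept their direction there, though 3 libraries allow no p below 0.25. Evenness fell to a difference of 0.057 in the second quantification. In the first, its direction rests on list lengths that include genes at 0. Of 23 subfamily shares 8 moved by at least their SD when computed from TPM and 14 in the second quantification. Both counts include Trav22, which stayed at 0 with an SD of 0. In the second quantification 22 of 30 named segment levels also moved by at least their SD. No paired analysis was possible because the libraries form 1 group. The 1963 to 2513 Trav counts per library limit single segments, and CAST Eij variants and copies beyond the reference were not tested.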
